A study of Rattus norvegicus with 10 samples.

Results

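Pericyte nuclei of the injured rat heart were described here from single-nucleus RNA counts at 24 h. A nucleus was counted as a pericyte nucleus when it held at least 500 UMIs (unique molecular identifiers, 1 per counted RNA molecule), at least 4 UMIs of Rgs5, Kcnmb2, Il34 and Ano1 together, more of these than of the smooth muscle genes Myh11, Acta2, Tagln and Cnn1 together, and at most 1 UMI of Ptprc (leukocytes), Flt1 (endothelium) and Pdgfra (fibroblasts) together. The rule found 1163 of 22037 nuclei, 513 of 11540 in the vehicle library and 650 of 10497 in the BT2 library. All libraries came from the area at risk (AAR), the heart muscle downstream of a left coronary artery ligation, which loses its blood flow, of rats given either vehicle or the code-named compound BT2. The nuclei were 1 library of vehicle and 1 of BT2 (100 mg/kg), both at 24 h. Polyadenylated tissue RNA was sequenced in 4 groups of 2 libraries, vehicle and BT2 at both 4 h and 24 h. The sources used here do not state the dose behind the tissue libraries, the strain, sex or age of the rats, or whether libraries came from separate animals or pools. The hours are counted from ligation in one label and from the injury, abbreviated M/IR, in another. M/IR was read here as myocardial ischaemia and reperfusion.

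Pericytes are mural cells that lie along capillaries inside the basement membrane they share with the endothelium. They respond to vasoactive hormones, set capillary tone through membrane potential and calcium, and exchange PDGF, Notch, angiopoietin and TGF-beta signals with endothelial cells. In the heart they carry the ATP-sensitive potassium channel of Kcnj8 and Abcc9, and after ischaemia they are known for constricting capillaries and limiting reflow.

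The nuclear libraries held 45471510 UMIs in vehicle and 32624251 with BT2, of which the pericyte nuclei held 1290857 (2.84%) and 1499368 (4.6%). Pericyte nuclei had a median of 2214 UMIs and 1314 genes in vehicle and of 1874 UMIs and 1138.5 genes with BT2. With 1 library per group no difference between the nuclear libraries can be tested: the intervals below cover counting error, and each ratio compares these libraries, not the conditions. The libraries shared 37 cell barcodes, 2 of them in pericyte nuclei of vehicle and 3 of BT2, and the share of pericyte nuclei without these barcodes was 4.44% and 6.19%. The 8 tissue libraries held 10397310 to 24480984 counts.

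The 4 genes that chose the nuclei were spread over most of them, and these values are descriptions. Rgs5 (a regulator that shortens G protein signalling) stood at 1456 CPM (UMIs of a gene scaled to the summed UMIs of its class of nuclei) in vehicle and 1463 with BT2. Kcnmb2, a regulatory subunit of the large-conductance calcium-activated potassium channel, stood at 2198 and 1545 CPM. Il34, a ligand of the macrophage receptor CSF1R, stood at 998 and 1223 CPM, and Ano1, a calcium-activated chloride channel that depolarizes mural cells, at 1005 and 1383 CPM. All 4 genes were detected in 31.2% of the vehicle and 32.5% of the BT2 pericyte nuclei, and only 1 of the 4 in 22 and 20 nuclei. Rgs5 itself was detected in 80.1% and 81.7%. In leukocyte nuclei (5 or more UMIs of Ptprc), which should lack it and were deeper (median 3747 and 3373 UMIs), Rgs5 was detected in 20.3% and 16.6%.

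The label was checked with a list of 25 markers that the rule did not use. Of these 25 pericyte markers, 24 were higher in the pericyte nuclei than in all other nuclei in vehicle, and 24 with BT2. Their summed level was 19551 CPM against 3595 in all other nuclei of vehicle, and 18912 against 4200 with BT2. In smooth muscle nuclei (defined below), the class most like them, it was 10650 CPM in vehicle and 9045 with BT2. The list thus sets the pericyte nuclei less apart from smooth muscle nuclei than from all other nuclei. Abcc9, the sulfonylurea receptor subunit of the ATP-sensitive potassium channel, was detected in 96.7% and 94.6% of the pericyte nuclei at 5312 and 5087 CPM. Kcnj8, its pore subunit and in RefSeq (GRCr8) the neighbouring gene, stood at 163 and 175 CPM against 8.99 and 10.4 in all other nuclei. Pdgfrb, the receptor that recruits pericytes to vessels, stood at 1246 and 1426 CPM against 123 and 168. Notch3 stood at 711 and 862 CPM against 49.5 and 58.5.

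**Figure D1:**
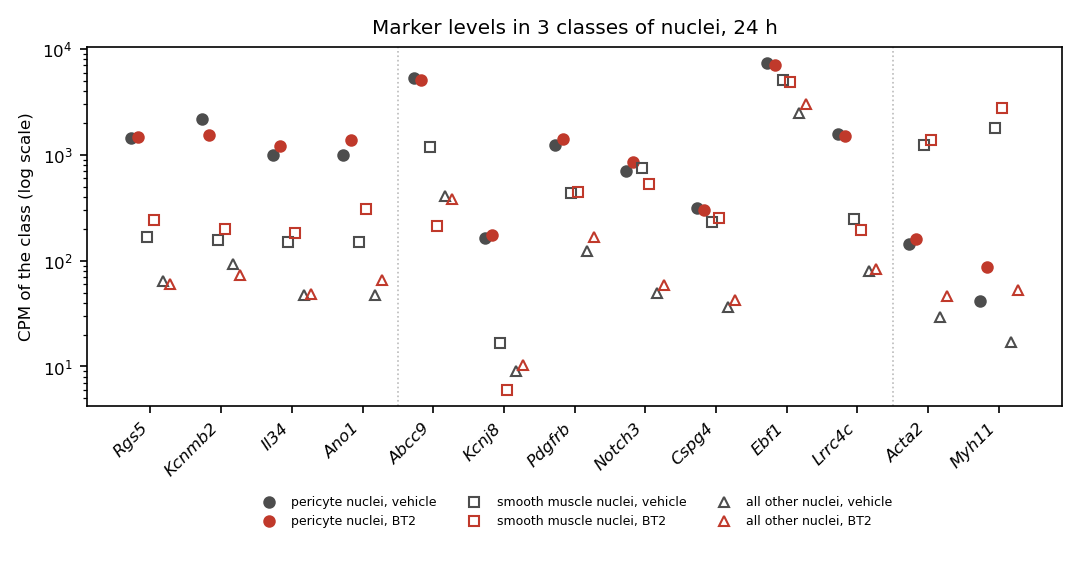
CPM on a log scale of 13 genes in 3 classes of nuclei at 24 h, filled circles for pericyte nuclei, squares for smooth muscle nuclei and triangles for all other nuclei, grey for vehicle and red for BT2. The 4 genes left of the first dotted line chose the pericyte nuclei, and the 2 right of the other line were used against them; the pericyte nuclei were highest for Abcc9, Kcnj8 and Pdgfrb in both libraries, and for Notch3 with BT2 only.

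Near the threshold the nuclei graded into their neighbours. In vehicle, the 42 nuclei with exactly 4 UMIs of the rule genes had 932 CPM of Pdgfrb and 3698 of Abcc9, and the 54 nuclei with 3 UMIs, just outside, had 834 and 3196. With BT2 the 66 nuclei inside had 1087 and 4653 CPM, and the 67 outside 697 and 2593.

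Other cell types left traces in the pericyte nuclei. The 15 endothelial markers summed to 578 CPM in vehicle and 1017 with BT2 (4016 and 3887 in all other nuclei), and the 14 myeloid markers to 622 and 507 CPM. The 14 cardiomyocyte markers summed to 3961 and 4992 CPM, of which 64.5% and 44.2% lay in 5 nuclei of each library. The 8 Schwann cell markers summed to 39.5 and 101 CPM and the 9 lymphocyte markers to 12.4 and 46.7. Nuclei with many UMIs of another type numbered 36 (7.02%) in vehicle and 72 (11.1%) with BT2. No doublet caller was run.

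Pericyte nuclei were 4.45% of the vehicle library (exact 95% interval 4.08 to 4.84) and 6.19% of the BT2 library (5.74 to 6.67), a ratio of 1.39. The direction depended on 1 part of the rule. Before the limit on Ptprc, Flt1 and Pdgfra, 1324 nuclei (11.5%) of vehicle and 1163 (11.1%) of BT2 met the other conditions, a ratio of 0.966. The limit then removed 811 nuclei (61.3%) of vehicle and 513 (44.1%) of BT2. The removed nuclei were deep, with a median of 6507 and 4358 UMIs, and held less of the pericyte genes per UMI: Pdgfrb stood at 244 and 473 CPM in them. Ptprc over all nuclei stood at 848 CPM in vehicle and 447 with BT2, Flt1 at 605 and 605, and Pdgfra at 103 and 170. Among the nuclei that met the other conditions, 688 and 297 had 2 or more UMIs of Ptprc, 588 and 351 of Flt1, and 180 and 74 of Pdgfra. The share of removed nuclei was lower with BT2, as were Ptprc and depth, but Flt1 over all nuclei was not lower and Pdgfra was higher. The part of any of these in the ratio of 1.39 was not tested. After each nucleus was thinned to 1000 UMIs, with 2 UMIs of the rule genes required, the shares were 6.33% and 8.84%.

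**Figure D2:**
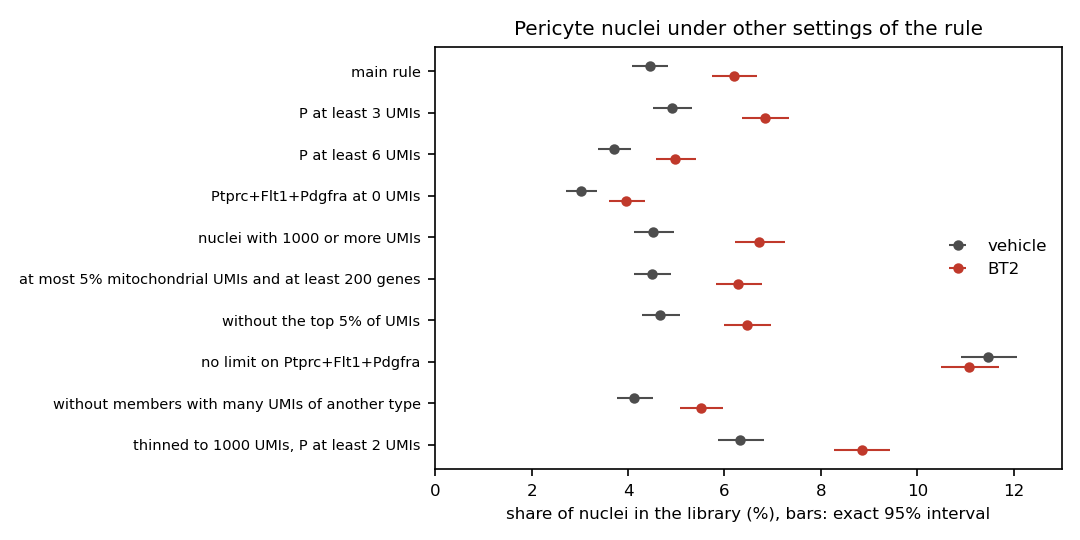
Share of nuclei (%) that met the rule in the vehicle (grey) and BT2 (red) libraries, with exact 95% intervals for counting error, under the main rule and 9 other settings. BT2 lay above vehicle in each setting shown except the one with no limit on Ptprc, Flt1 and Pdgfra, where the shares were 11.5% and 11.1%.

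Beyond the rule genes, the genes that stood farthest above all other nuclei included channels, receptors and adhesion molecules. In both libraries together Unc5d, a netrin receptor, was 22.5-fold higher, Lrrc4c, a netrin-G ligand, 18.8-fold, Crhr2, the receptor of urocortins, 18.8-fold, and Cox4i2, the hypoxia-regulated subunit of cytochrome oxidase, 18.5-fold. Kcnip4, a subunit of potassium channels, was 18.3-fold higher, Rgs4 17.8-fold and Kcnj8 17.7-fold. Lrrc4c was widespread, in 83% and 79.7% of the pericyte nuclei, whereas Unc5d was in 12.9% and 9.23%. In all, 136 genes with at least 50 UMIs in each library were at least 5-fold higher than in all other nuclei. These genes come from the same counts as the rule.

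Smooth muscle nuclei, chosen by the mirrored rule (at least 4 UMIs of Myh11, Acta2, Tagln and Cnn1, more than of the pericyte genes, and the same limit), numbered 32 (0.277%) in vehicle and 98 (0.934%) with BT2, at 120474 and 331017 UMIs. Myh11, smooth muscle myosin, stood at 41.8 and 88 CPM in pericyte nuclei and at 1801 and 2743 CPM in smooth muscle nuclei. Kcnma1, the pore of the channel that Kcnmb2 regulates, had 1 and 18 UMIs in pericyte nuclei against 86 and 297 in smooth muscle nuclei. The neurotrophin receptor Ntrk3 had 0 and 16 UMIs against 242 and 442. In the other direction Kank4 had 168 and 170 UMIs in pericyte nuclei and 0 in smooth muscle nuclei, so it was at least 18.2-fold higher against a floor of 3 UMIs over that class. Erp27 was at least 6.69-fold higher. Notch3 (755 and 532 CPM) and Gucy1a3 (855 and 1139 CPM) were as abundant in smooth muscle nuclei as in pericyte nuclei or more so in at least 1 library.

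Some pericyte nuclei carried smooth muscle transcripts. At least 1 UMI of Myh11, Acta2 or Tagln was present in 100 nuclei (19.5%) of vehicle and 129 (19.8%) of BT2. Those nuclei had 127 and 244 CPM of Lmod1, a smooth muscle leiomodin, against 5.12 and 11.1 in the nuclei without such a UMI. Their median depth was higher, 2869 and 2183 UMIs against 2069 and 1818. Pdgfrb stood at 1184 and 1393 CPM with and 1267 and 1435 without, and Abcc9 was lower with such a UMI, at 4422 and 3703 CPM against 5598 and 5481. Notch3 was higher with it, at 837 and 927 CPM against 671 and 843. The part of depth in these values was not tested.

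Variation among the pericyte nuclei was measured in nuclei thinned to 1000 UMIs. In these (461 of vehicle and 620 of BT2, leaving out 52 and 30 shallower ones), the median Fano factor (variance over mean, 1 for random sampling) of 3295 genes was 1.12 and 1.14. Ranked by the lower of the 2 libraries, Ttn, the cardiomyocyte giant titin, came first at 30.6 and 74.4. It was followed by mt-Rnr2, a mitochondrial ribosomal RNA, at 9.76 and 8.35, Plcl1 at 5.85 and 7.14, and Ryr2, the cardiomyocyte calcium release channel, at 10.6 and 5.83. Tmem132d had 4.10 and 3.95 and Dlc1 4.28 and 3.87. Of the pericyte genes, Ano1 reached 3.22 and 4.93, Kcnmb2 3.63 and 2.88, Unc5d 3.04 and 3.56 and Abcc9 2.65 and 3.04. Ano1 was used by the rule, and its spread is a description.

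The comparison within the pericyte nuclei asked which of their transcripts differed between the BT2 and the vehicle library. Of 7096 genes with at least 50 UMIs in both libraries together, 454 (6.4%) were at least 1.5-fold higher with BT2 and 453 (6.38%) at least 1.5-fold lower, and the median log2 ratio was -0.01. Most pericyte markers lay close to equal: of the 22 markers past the UMI minimum, 2 were higher, 1 was lower and 19 lay within 1.5-fold, with a median log2 ratio of -0.06. Abcc9 had a ratio of 0.958 (95% interval 0.927 to 0.99), Pdgfrb of 1.14 (1.07 to 1.22) and Ednra, the endothelin receptor of mural cells, of 0.955 (0.886 to 1.03). Among the rule genes Ano1 had a ratio of 1.38, Il34 of 1.23, Rgs5 of 1 and Kcnmb2 of 0.703.

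**Figure D3:**
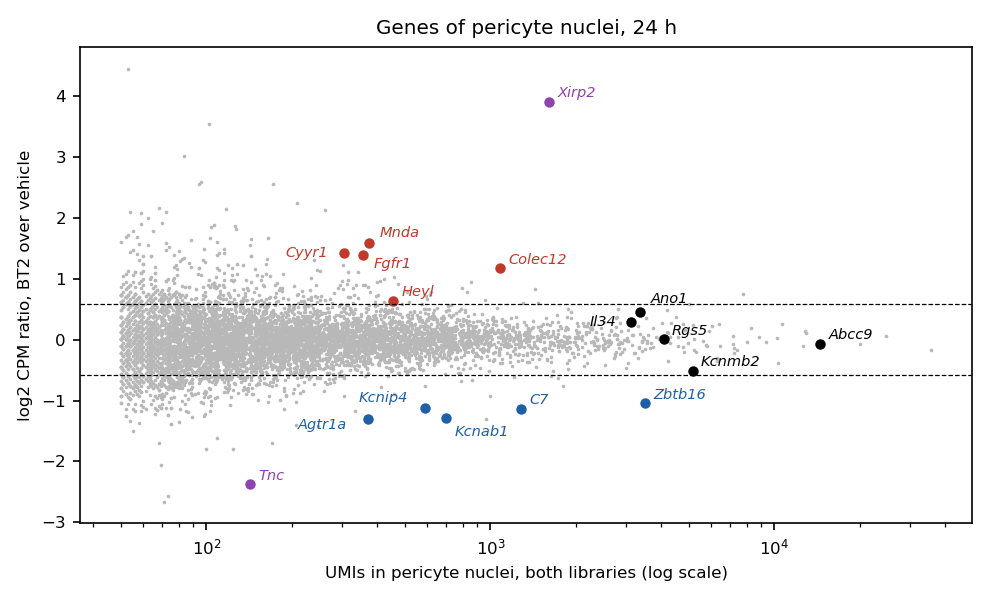
Log2 ratio of CPM, BT2 over vehicle, against the UMIs in pericyte nuclei of both libraries (log scale) for 7096 genes; dashed lines mark 1.5-fold. Black points are rule genes and Abcc9, blue points genes lower with BT2, and red points genes higher. Purple points are Xirp2, most of whose BT2 UMIs lay in 1 nucleus, and Tnc, a smaller part of whose vehicle UMIs did.

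Agtr1a, the angiotensin II receptor through which mural cells constrict, was lower with BT2. It had 253 UMIs in 143 nuclei of vehicle (27.9%) and 119 UMIs in 79 nuclei of BT2 (12.2%), a ratio of 0.405 (0.323 to 0.505). In leukocyte nuclei it was detected in 6.01% and 3.95%, and in all other nuclei its ratio was 1.1. Its ratio was 0.37 with means over nuclei and 0.376 with thinned nuclei. Without the limit on Ptprc, Flt1 and Pdgfra it was 1.25; in that wider set the median log2 ratio of the 22 pericyte markers was 1.05 and that of all genes -0.12.

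The 136 genes at least 5-fold higher in pericyte nuclei had at least 50 UMIs in each library. Of these, 7 were at least 1.5-fold lower with BT2 and 1 was higher. Of the 7096 genes with the looser minimum of 50 UMIs in both libraries together, 6.38% were lower and 6.4% higher. With a minimum of 200 UMIs in both together these shares were 1.77% and 2.71%. Among the 4471 genes with 50 UMIs in each library they were not counted. The median log2 ratio of the 136 genes was -0.05. The 7 were Agtr1a and the next 6 genes, described after their values were seen. Slc12a2, the sodium-potassium-chloride cotransporter that loads cells with the chloride Ano1 releases, had 1065 and 734 UMIs (ratio 0.593, 0.539 to 0.652), with 0.947 in all other nuclei. Dlgap1, a scaffold protein, had 687 and 520 UMIs (0.652, 0.58 to 0.731), and Ehd3, an endosomal trafficking protein, 281 and 175 (0.536, 0.441 to 0.65). Kcnip4 had 385 and 205 UMIs in 108 and 77 nuclei (0.458, 0.385 to 0.544). Slc25a33, a mitochondrial nucleotide carrier, had 141 and 99 UMIs (0.604) and Frem2, a basement membrane protein, 118 and 73 (0.533). Each of these 7 genes was detected in fewer nuclei of BT2, although that library had more pericyte nuclei (650 against 513). Slc12a2 was in 340 and 331 nuclei and Dlgap1 in 258 and 247, so as shares of the pericyte nuclei their drops were larger than these counts show. The same UMIs chose the genes, and the BT2 nuclei were shallower, so these counts are a description and support nothing. Without the limit on Ptprc, Flt1 and Pdgfra the log2 ratios were above 0 for Slc12a2 (0.28), Dlgap1 (0.37), Ehd3 (0.32), Kcnip4 (0.11), Slc25a33 (0.21) and Frem2 (0.30).

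The 1 gene higher with BT2 was Rgs2, which limits Gq signalling from vasoconstrictor receptors, at 119 and 222 UMIs in 60 and 93 nuclei (ratio 1.61, 1.28 to 2.02; 1.33 in thinned nuclei). With the minimum of 50 UMIs set on the sum of both libraries, which lets in genes through the library where they are high, the class held 190 genes, 22 of them lower and 11 higher; these counts are a description and support nothing. Plcxd3 entered that way, with 61 UMIs in 29 nuclei of vehicle and 12 in 9 of BT2 (0.169, 0.083 to 0.318). So did Pth1r, the parathyroid hormone receptor, at 38 and 86 UMIs (1.95, 1.32 to 2.93). Rasd1, a small GTPase, had 32 and 76 UMIs (2.04, 1.34 to 3.19). Il6 had 42 and 122 UMIs, but in only 17 and 24 nuclei, with up to 24 in 1 nucleus. Heyl, a transcription factor that Notch3 induces, was 4.34-fold higher in pericyte nuclei than elsewhere and had 161 and 292 UMIs in 112 and 180 nuclei (1.56, 1.28 to 1.9). Its ratio in all other nuclei was 2.23.

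Widely detected genes were those in at least 10% of the pericyte nuclei of 1 library, with no nucleus holding over 10% of the UMIs. The 10 of them with the largest ratios in each direction were compared with all other nuclei. In pericyte nuclei 6 of the lower and 2 of the higher ones were more abundant than there. The share of all widely detected genes that were so was not counted, so these counts are a description and support nothing. Zbtb16, a glucocorticoid-induced transcription factor, had 2248 and 1268 UMIs (ratio 0.486, 0.453 to 0.52) in 83.2% and 67.5% of the nuclei, against 55% and 49.7% of leukocyte nuclei. C7, a complement component, had 840 and 445 UMIs (0.456), in 52.4% and 32.6%, against 29.2% and 35.1% of leukocyte nuclei, and its ratio in all other nuclei was 1.73. Nostrin, an adaptor of nitric oxide synthase trafficking, had 173 and 75 UMIs (0.373, 0.281 to 0.492), and Tp53inp1 123 and 65 (0.455). Bcl6 (0.287) and Spp1 (0.379), also lower, were less abundant in pericyte nuclei than elsewhere.

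Of the 10 widely detected genes higher with BT2, 8 were less abundant in pericyte nuclei than in all other nuclei, again a count without a background share. Colec12, a scavenger receptor, had 298 and 786 UMIs (ratio 2.27, 1.98 to 2.6) in 27.5% and 48% of the pericyte nuclei, but 62.6% and 47.6% of leukocyte nuclei held it. Cyyr1 (74 and 231 UMIs, ratio 2.69), Emcn (31 and 80, ratio 2.22) and Jam2 (37 and 91, ratio 2.12) are endothelial genes, and their levels in pericyte nuclei were 0.197, 0.243 and 0.226 times those in all other nuclei. Mnda had 83 and 290 UMIs (3.01) and Fgfr1, a fibroblast growth factor receptor, 88 and 268 (2.62). Colec12 was thus detected in fewer pericyte than leukocyte nuclei of vehicle and in about as many with BT2, and C7 with BT2 in fewer. The leukocyte nuclei were also deeper, and no expression in pericytes is read from these shares. The part of free RNA in the ratios of Colec12 and C7 was not tested.

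Some of the largest and smallest ratios by rank lay in few nuclei, and others did not. Xirp2, a cardiomyocyte gene, had 87 UMIs in vehicle and 1524 with BT2 (ratio 15.1), of which 1212 lay in 1 nucleus, and its ratio was 1.39 without nuclei rich in another type. Ccl21 (6.03) had 81 of its 84 BT2 UMIs in 1 nucleus, and Nrap (4.74) had 141 of 176. Among the lowest, Kcnq3 (0.158) had its 60 vehicle UMIs in 3 nuclei, and Tnc (0.193) had 43 of 116 in 1. Scn7a, a Schwann cell gene, had 2 UMIs in vehicle and 51 in 26 nuclei of BT2. More widely spread were Dlg2 (5.88), with 82 BT2 UMIs in 57 nuclei and at most 6 in 1, Hmcn2 (5.87), with 150 in 67, and Fat4 (4.46), with 57 in 40. Pex2 (0.31) had 50 vehicle UMIs in 40 nuclei. Without the limit on Ptprc, Flt1 and Pdgfra the ratios were 1.41 for Dlg2, 1.24 for Hmcn2, 1.06 for Fat4 and 0.864 for Pex2. Without nuclei rich in another type they were 6.9, 7.31, 2.26 and 0.288.

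The pathway lists gave the rest of the picture, each beside the background of 6.4% higher and 6.38% lower. Ion channel and calcium genes numbered 21 past the minimum, of which 1 was higher, Ryr3, and 1 lower, Kcnab1, a potassium channel subunit (473 and 226 UMIs, 0.411). Ryr3, a calcium release channel, had 55 and 119 UMIs (1.86), of which 46 lay in 1 nucleus of BT2; its ratio was 1.40 without the top nucleus of each library and 1.04 without nuclei rich in another type. Of 9 vasoactive receptors 1 was higher, Ednrb, the second endothelin receptor, at 209 and 404 UMIs (1.66, 1.4 to 1.98; 1.36 with means over nuclei), and 1 lower, Agtr1a. Of 26 genes of cyclic nucleotide signalling, the route of nitric oxide relaxation, only Rgs2 passed 1.5-fold and none was lower. Prkg1, the cGMP-dependent kinase, had a ratio of 1.04 and Pde3a, a phosphodiesterase, of 0.933. Of 34 actin and contractile genes 0 were higher and 2 lower.

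Of 26 genes that signal between endothelium and pericytes 7 were higher with BT2 and 0 lower, with a median log2 ratio of 0.4, among them Efnb2 (23 and 64 UMIs), Angpt2 (17 and 42) and Smad7 (34 and 72). Of 13 endothelial markers 9 were higher and 0 lower, with a median log2 ratio of 0.78. Their summed level moved from 578 to 1017 CPM, and in leukocyte nuclei it was 3343 and 3492 CPM. The part of endothelial RNA in the 7 genes was not tested. Without the limit on Ptprc, Flt1 and Pdgfra the endothelial median was -0.13.

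Of 25 basement membrane genes 2 were higher and 0 lower, and 1 and 2 with means over nuclei. The collagen IV chains Col4a1 and Col4a2 both had ratios of 1.21, and Nid1, nidogen, of 0.717. Of 30 fibrillar matrix genes 5 were higher and 3 lower, with Eln at 2.68 and Tnc at 0.193. Of 17 inflammatory genes 3 were higher and 0 lower, and 3 and 2 with means over nuclei. Il1r1, the interleukin-1 receptor, with 1371 and 1388 UMIs had a ratio of 0.872. Of 13 immediate early genes 3 were higher, among them Junb at 1.98, and 1 was lower, Fos at 0.58; with means over nuclei 0 were higher and 4 lower. Junb was at 1.34 with means over nuclei and at 0.85 in thinned nuclei. Of 8 cell cycle genes 1 was higher and 5 lower, with a median log2 ratio of -0.86. Mcm6 had 37 and 19 UMIs. Of 21 mitochondrial metabolism genes 0 were higher and 2 lower, and of 20 glucocorticoid and clock genes 2 were higher and 1 lower.

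The nuclei that the limit removed met the same conditions on the rule genes and held more RNA of other cells. To compare them, UMIs were expressed per UMI of Abcc9. Ano1 had a BT2 over vehicle ratio of 1.44 (1.33 to 1.55) in the pericyte nuclei and 1.67 (1.54 to 1.81) in the removed ones, and Il34 had 1.28 and 1.25. Both sets were chosen by these rule genes, so their ratios are a description and support nothing. No background over all genes was made for the removed nuclei, so the values below are descriptions and support nothing. Ebf1, for example, had 0.996 and 0.798, and Ednra 0.998 and 1.32. Some other genes lay on the same side of 1 in both sets: Heyl had 1.63 and 1.36 and Notch3 1.27 and 1.34. Slc12a2 had 0.62 and 0.655, Slc25a33 0.631 and 0.603 and Kcnip4 0.479 and 0.52. Agtr1a had 0.423 (0.339 to 0.527) in the pericyte nuclei and 0.912 (0.723 to 1.15), at 254 and 103 UMIs, in the removed ones. These intervals do not overlap, but they leave out the spread between nuclei and between libraries. The sets were therefore not tested against each other. Other genes had unlike ratios in the sets as well. The rule gene Kcnmb2 had 0.734 (0.689 to 0.782) and 0.933 (0.868 to 1), and Tmem178a 0.463 and 1.47. Rasd1 had 2.14 and 0.75, Pth1r 2.03 and 1.11, and Rgs2 1.68 and 1.11. Colec12 had 2.37 (2.07 to 2.72) in the pericyte nuclei and 0.568 (0.528 to 0.612) in the removed ones. The 2 sets of a library come from the same library, so they are no replicates of the condition.

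**Figure D4:**
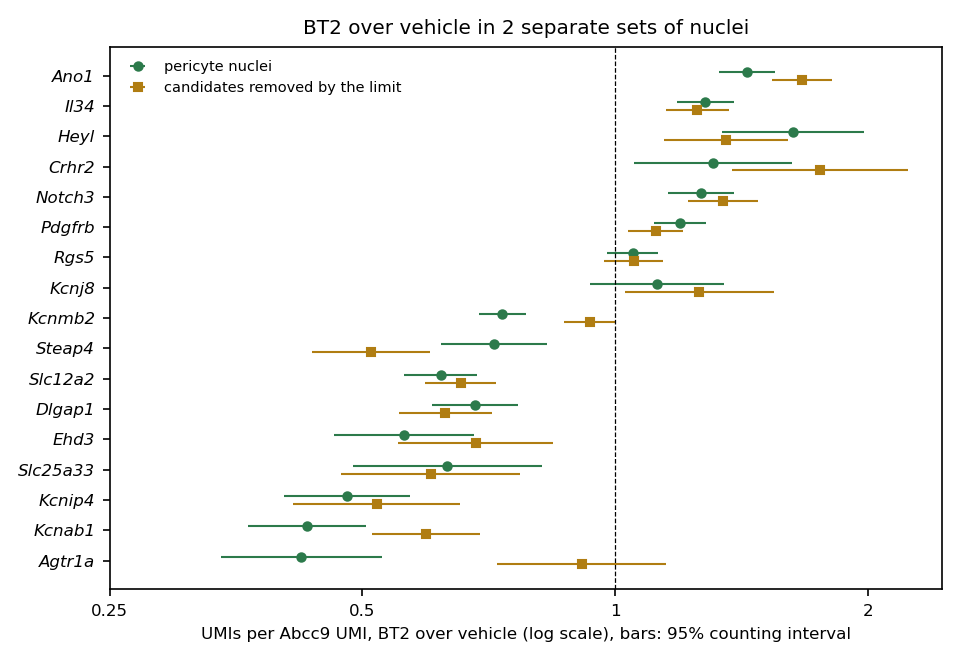
Ratio of UMIs per UMI of Abcc9, BT2 over vehicle, on a log scale with 95% counting intervals, for 17 genes in pericyte nuclei (green circles) and in the nuclei removed by the limit on Ptprc, Flt1 and Pdgfra (ochre squares). Ano1, Il34, Heyl and Notch3 lay above 1 and Slc12a2, Kcnip4 and Kcnab1 below 1 in both sets. Agtr1a was at 0.423 and 0.912 and Kcnmb2 at 0.734 and 0.933. No background over all genes was made for the removed nuclei.

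The sequences before the start sites of Ano1, Heyl and Agtr1a are shown as those of 3 genes named above: Ano1, a rule gene whose ratio of 1.38 lay within 1.5-fold, Heyl, a pericyte marker outside the 5-fold class, and Agtr1a, the gene of that class with the lowest ratio. Each run is the 250 bases upstream of the start in RefSeq on GRCr8, 5′ to 3′ on the gene's strand, with capitals marking 3 motifs searched on both strands. The TATA box was searched as TATAAA. The GC box was searched as GGGGCGG. The E box was searched as CAGCTG.
Ano1: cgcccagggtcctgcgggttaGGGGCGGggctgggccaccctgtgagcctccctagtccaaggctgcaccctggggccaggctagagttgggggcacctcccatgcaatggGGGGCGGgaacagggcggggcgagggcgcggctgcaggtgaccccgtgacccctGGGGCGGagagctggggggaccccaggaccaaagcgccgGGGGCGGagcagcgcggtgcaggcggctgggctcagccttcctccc
Heyl: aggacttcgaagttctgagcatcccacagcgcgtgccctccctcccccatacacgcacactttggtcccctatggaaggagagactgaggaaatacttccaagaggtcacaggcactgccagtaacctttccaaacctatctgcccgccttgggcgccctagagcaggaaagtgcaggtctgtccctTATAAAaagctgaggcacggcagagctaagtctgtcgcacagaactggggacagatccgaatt
Agtr1a: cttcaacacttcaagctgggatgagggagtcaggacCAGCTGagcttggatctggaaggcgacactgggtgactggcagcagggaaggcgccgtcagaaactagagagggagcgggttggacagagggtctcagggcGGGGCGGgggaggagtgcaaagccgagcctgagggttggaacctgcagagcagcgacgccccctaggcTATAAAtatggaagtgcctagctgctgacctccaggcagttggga
They lie at chr1:209329339-209329588 on the minus strand, chr5:140793021-140793270 on the plus strand and chr17:34435433-34435682 on the minus strand. The Ano1 run held GGGGCGG 4 times, the Heyl run TATAAA once, and the Agtr1a run each motif once. Of 33469 RefSeq promoters of that length 12.9% held TATAAA, 18.8% GGGGCGG and 12% CAGCTG. Of the 101 promoters matched among the 136 pericyte-enriched genes, 8.91%, 29.7% and 15.8% held them, and of the 4007 matched among genes with at least 50 UMIs in each library 6.31%, 41.8% and 11.6%. A match is a description of letters, and no data here bear on binding.

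The tissue libraries, which the rule did not use, gave the tested comparison of BT2 with vehicle, with 2 libraries per group. At 24 h edgeR called 2873 of 15216 genes higher (18.9%) and 3143 lower (20.7%) at a Benjamini-Hochberg adjusted p under 0.05, so calls were common among all genes. The p-values measure only the spread between these libraries, which may be technical. In tissue, more cells of a type and more RNA per cell cannot be told apart, and these genes are also expressed outside pericytes. Of the 25 pericyte markers 15 rose, 2 fell and 8 did not pass, with a median log2 fold change of 0.75 against -0.01 over all genes. Of the 130 tested genes among the 136 pericyte-enriched ones 59 rose and 3 fell, with a median of 0.66. Of the other lists, 13 of 14 cardiomyocyte markers, 8 of 15 fibroblast markers and 6 of 15 endothelial markers rose, and 9 of 14 myeloid markers fell; the part of these shifts in the pericyte counts was not tested.

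Rgs5 stood at 70.5 and 62.5 CPM (TMM-scaled) in the 24 h vehicle libraries and at 143 and 108 CPM with BT2. Its log2 level rose by 0.92 ± 0.19 (SE, edgeR adjusted p = 0.00648), with no overlap of the groups, and missed the threshold without vehicle library 2 (edgeR adjusted p = 0.051). Il34 stood at 7.71 and 7.33 CPM against 13.6 and 14.5 and rose by 0.9 ± 0.18 (edgeR adjusted p = 0.00632). Kcnmb2 was near the detection limit, at 0.382 and 0.787 CPM against 1.13 and 1.22 (log2 fold change 1.02 ± 0.43, edgeR adjusted p = 0.0903). Ano1 stood at 13.2 and 10.4 CPM against 15.5 and 15.4 (0.39 ± 0.15, edgeR adjusted p = 0.0664). Kcnmb2 and Ano1 thus did not pass. Both libraries of BT2 lay above both of vehicle for each of the 4 genes. The share of all genes with such an order was not counted, so this is a description.

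Abcc9 stood at 193 and 172 CPM in vehicle and 331 and 283 with BT2, and rose by 0.75 ± 0.13 (edgeR adjusted p = 0.00316). Egflam, a matrix protein that anchors dystroglycan, stood at 5.34 and 6.05 CPM against 25.9 and 22.1 and had the largest rise of the 25 markers (2.08 ± 0.19, edgeR adjusted p = 0.00053). Heyl stood at 32.8 and 31.1 CPM against 75.4 and 57.4 and rose by 1.06 ± 0.16 (edgeR adjusted p = 0.00222). Mcam, an adhesion molecule of mural and endothelial cells, stood at 272 and 244 CPM against 148 and 157 and fell by 0.76 ± 0.13 (edgeR adjusted p = 0.00358). Of the 15 that rose, 8 were called in every fit that left out 1 of the 24 h libraries (among them Abcc9, Vtn, Ndufa4l2, Steap4, Heyl, Egflam and Cygb), and of the 2 that fell Mcam was. The others lost the call without at least 1 library, Gucy1a3 without BT2 library 1 or vehicle library 2, for example.

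Other markers did not pass. Pdgfrb stood at 195 and 194 CPM in vehicle and 219 and 221 with BT2 (log2 fold change 0.18 ± 0.1, edgeR adjusted p = 0.185), and Notch3 at 103 and 98.8 against 114 and 112 (0.16 ± 0.15, edgeR adjusted p = 0.435). Agtr1a stood at 4.58 and 3.02 CPM against 5.42 and 4.44 (0.37 ± 0.28, edgeR adjusted p = 0.316), with overlapping groups. Slc12a2 did not pass either (0.22 ± 0.18, edgeR adjusted p = 0.366). Dlgap1, lower in the pericyte nuclei, rose in tissue by 1.37 ± 0.3 (edgeR adjusted p = 0.00855), and missed the threshold without BT2 library 1 (edgeR adjusted p = 0.063) or vehicle library 1 (0.065). Rgs2, higher in the nuclei, fell by 0.87 ± 0.24 (edgeR adjusted p = 0.0221), and missed it without any 1 of the 4 libraries at 24 h. Rasd1, also higher in the nuclei, stood at 10.4 and 9.94 CPM against 5.24 and 4.20 and fell by 1.11 ± 0.18 (edgeR adjusted p = 0.00247), called in all 4 fits that left out a library at 24 h. Il6, another such gene, stood at 10.4 and 1.28 CPM against 0.316 and 0.571 and fell by 3.71 ± 1.1 (edgeR adjusted p = 0.0362), called in 1 of these 4 fits. C7, lower in the nuclei, rose by 1.25 ± 0.2 (edgeR adjusted p = 0.00247), and Spp1 fell by 2.6 ± 0.39 (edgeR adjusted p = 0.00247).

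**Figure D5:**
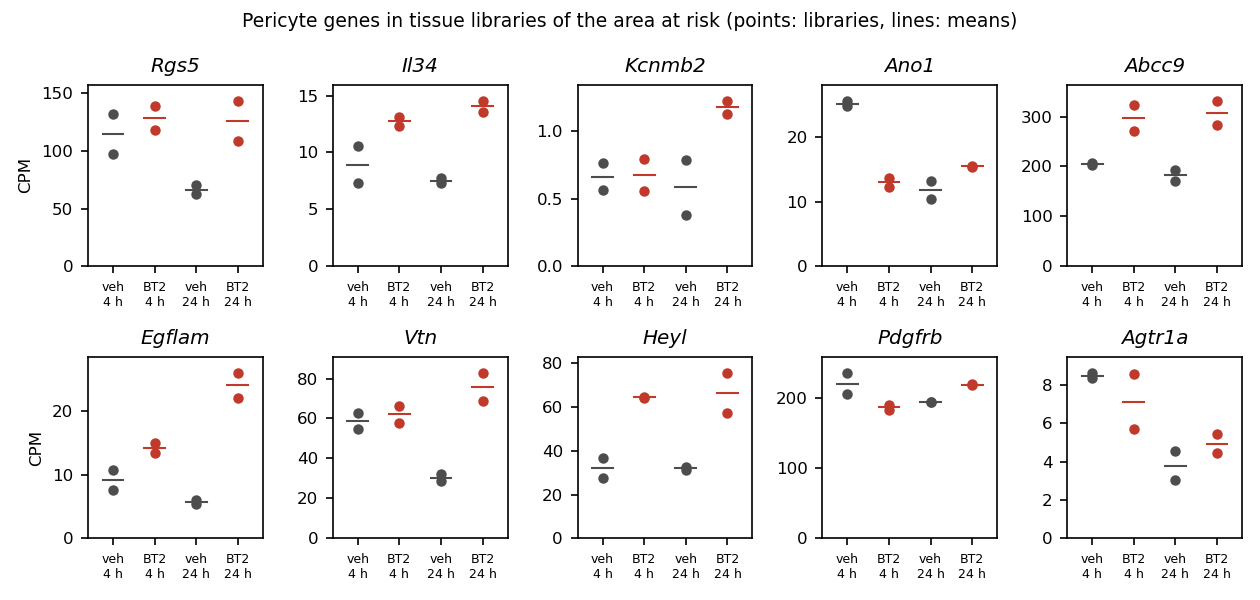
CPM of 10 pericyte genes in the 8 tissue libraries, each point 1 library and each line the mean of 2, grey for vehicle and red for BT2. At 24 h both BT2 libraries lay above both vehicle libraries for 9 of the genes and overlapped for Agtr1a. The share of all genes with such an order was not counted. At 4 h Ano1 was lower with BT2 (12.2 and 13.7 CPM) than with vehicle (25.6 and 24.7 CPM).

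At 4 h edgeR called 1015 genes higher (6.67%) and 1480 lower (9.73%). Of the 25 pericyte markers 5 rose, 2 fell and 18 did not pass, with a median log2 fold change of 0.18, and none of these 7 kept its call in every fit that left out a 4 h library. Ano1 fell by 0.95 ± 0.15 (edgeR adjusted p = 0.0112), and missed the threshold without BT2 library 2 (edgeR adjusted p = 0.057) or vehicle library 2 (0.0505). Heyl rose by 1.01 ± 0.17 (edgeR adjusted p = 0.0122) and Abcc9 by 0.54 ± 0.13 (edgeR adjusted p = 0.0283), and each lost the call without at least 1 library, among them vehicle library 2. Rgs5 had a log2 fold change of 0.17 ± 0.19 (edgeR adjusted p = 0.576).

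The difference between the effects at 24 h and at 4 h was tested itself, and edgeR called 718 genes with a higher effect at 24 h (4.72%) and 369 with a lower one (2.43%), 7.14% in either direction. Of the 25 markers 3 had a higher effect at 24 h (Egflam, Vtn and Steap4) and 0 a lower one. Of the rule genes Ano1 did, by 1.34 on the log2 scale (edgeR adjusted p = 0.0208), and Rgs5 did not pass (0.75, edgeR adjusted p = 0.12). None of the 3 marker calls held in every fit that left out a library, and that of Ano1 held in 3 of 8; without vehicle 24 h library 2 edgeR called 0 genes at an adjusted p under 0.05 and 2854 at an unadjusted p under 0.05.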

How the data were processed

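The authors deposited nuclear UMI counts per gene and barcode (1 library of vehicle, 1 of BT2; Cell Ranger 8.0.1, per the file headers) and tissue read counts per gene in 8 libraries. The submitters' processing notes name Trim Galore, STAR, featureCounts and the build Rnor_6.0. The mRNA kit was stranded, per the labels' protocols. No source used here says whether intron reads or strand were counted. The members, lists and tests were chosen with earlier results of these data known.

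UMIs were summed over pericyte nuclei, scaled to CPM, and compared as BT2 over vehicle with an exact 95% binomial interval (Python 3.11.15, scipy 1.17.1); genes needed 50 UMIs in both libraries together, and 1.5-fold was the threshold. Ratios per UMI of Abcc9 had 95% intervals symmetric on the log scale instead. All intervals cover counting error only. Named genes were the rule genes and pericyte markers, the 15 most enriched, the 10 largest and 10 smallest ratios whose interval excludes 1, up to 3 per list, and 8 per direction against smooth muscle nuclei. Widely detected and enriched genes that differed were rules added after the data were seen, as were the settings without the limit, without nuclei rich in another type (10 or more UMIs of the cardiomyocyte, endothelial or myeloid list, or 3 of the lymphocyte or Schwann cell list), without the top nucleus and without shared barcodes.

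Tissue counts were fitted with edgeR 4.0.16 (R 4.3.3; quasi-likelihood, TMM, filterByExpr, all 8 libraries, 4 residual degrees of freedom), with Benjamini-Hochberg adjustment over 15216 genes; DESeq2 1.42.0 was an alternative. The nuclei simulation drew counts by random sampling only, with no spread between nuclei or libraries. Changes were planted in a part of the genes, and 7083 genes passed the minimum. Of the planted 2-fold changes 97% passed 1.5-fold, and 3.76% of unchanged genes did. That share is no false rate for the real libraries. In the tissue simulation at 24 h, 57% of 2-fold and 87% of 4-fold changes were called, with 13 false among 157 calls. At 4 h 49% and 77% were called, with 8 false among 134 calls, so a gene that did not pass may still differ. Results of a few named genes are not reported here; counts over lists include them.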

Additional observations from a re-analysis of the deposited data

Results flagged for a closer look

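For 10 of the genes named and reported, the BT2 effect in tissue differed between 24 h and 4 h (edgeR interaction test, adjusted p under 0.05). All 10 effects were higher at 24 h, where 4.72% of all genes tested had a higher effect and 2.43% a lower one. The number of named genes tested was not counted, so the 10 are a list and not a share. Some of them, such as Ccl21 and Nrap, were named for their ratios in the nuclei. The difference on the log2 scale was 1.34 for Ano1, 1.43 for Egflam, 1.24 for Vtn, 1.09 for Steap4 and 1.06 for Myh11. It was 1.19 for Nrap, 0.98 for Hmcn2, 1.09 for Sema3a, 1.77 for Ccl21 and 1.20 for Ablim3. Of the 8 fits that each left out 1 library, the call held in 6 for Ablim3, in 4 for Vtn and Ccl21, in 3 for Ano1 and Egflam, in 1 for Myh11, Nrap and Sema3a and in 0 for Steap4 and Hmcn2.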

How the results depend on the processing

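The share of pericyte nuclei in vehicle and BT2 was 4.91% and 6.83% with 3 UMIs of the rule genes, 3.71% and 4.98% with 6, 3.02% and 3.96% with Ptprc, Flt1 and Pdgfra at 0, 6.33% and 8.84% in thinned nuclei, and 11.5% and 11.1% without that limit. For BT2 it was 6.72% among nuclei with 1000 or more UMIs and 5.51% without nuclei rich in another type. Genes 1.5-fold higher and lower numbered 869 and 2137 without the limit, 958 and 984 with a minimum of 20 UMIs, 81 and 53 with 200, and 262 and 225 in thinned nuclei. Without the limit, these log2 ratios reversed: Frem2 0.30, Slc25a33 0.21, Tmem178a 0.74, Ehd3 0.32, Dlgap1 0.37, Pcp4l1 1.15, Kcnip4 0.11, Hpgd 0.30, Agtr1a 0.32 and Slc12a2 0.28 turned positive, and Emcn -0.11, Ttn -0.12, Ryr3 -0.62, Ccser1 -0.40, Skap1 -0.90, Pecam1 -0.087, Jam2 -0.37, Eln -0.052, Sorbs2 -0.057, Efnb2 -0.49 and Ablim3 -0.091 turned negative. With Ptprc, Flt1 and Pdgfra at 0, Ttn was at -0.56 and Sorbs2 at -0.072, and Ttn was at -0.28 without nuclei rich in another type. The cause was not tested. Over all settings, 1751 gene values in nuclei kept direction and moved little, 177 moved and 24 reversed; in tissue 2284 kept their side of the threshold, 212 lost the call and 72 gained it.

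In tissue, leaving out 1 library gave 2982 to 4558 calls at 24 h, 112 to 2796 at 4 h and 0 to 1443 for the difference, each with edgeR. The lone library left in a group is assumed to vary like the others. The 4 h libraries alone gave 621 calls, and no filter on low counts gave 1819 for the difference. Equal replicate numbers do not pair the libraries (correlations of deviations -0.046 to 0.097); with the replicate block the calls were 5824, 2248 and 729. The nuclei rest on 1 library per group, so no difference between them is separated from differences between libraries.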
